A study of Mus musculus with 21 samples.

Results

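The genes described here encode the machinery that copies DNA and makes its building blocks. They were chosen by name for their roles in origin recognition and firing, the polymerases and primase, the sliding clamp and its loader, single-strand binding and lagging-strand processing, nucleotide synthesis, and replication chromatin, with the MCM helicase genes left out. Of 43 genes given, 42 had a probe set with 1 gene symbol, out of 12393 such genes in all, and Chaf1a had none. Probe sets with several symbols were not used. Each gene was read from the probe set with the highest mean. A gene was tested where at least 3 arrays read above log2 4, which held for 30 of the 42 and for 7320 genes in all.

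The series measured liver RNA of 9-month-old male mice on 21 Affymetrix arrays and is titled for double-strand DNA breaks in chronically inflamed liver and liver cancer. Mdr2-/- mice (KO) lack Abcb4, the transporter that puts phospholipid into bile, and have the strain label FVB129P2. Control mice have the label FVB129P2/FVBNJ, so genotype and strain background cannot be told apart. All mice had 30% partial hepatectomy, a surgical removal of liver tissue that makes the remnant regrow. The removed lobe is the day 0 sample, and remnants were taken on day 2 or day 6. There were 6 KO arrays on day 0 and 3 arrays in each of the other 5 groups: KO day 2, KO day 6, control day 0, control day 2 and control day 6. Each array of a group came from its own mouse. All KO mice on days 2 and 6 had also given a day 0 array, as had control mice 263 and 265 (day 2) and 303 (day 6), whereas control mice 264, 392 and 393 were measured on a later day only.

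DNA replication starts at origins marked by the origin recognition complex. A kinase formed by Cdc7 and Dbf4 then fires them, primase lays down a short primer, and polymerases extend it while held to DNA by the PCNA clamp, which the RFC complex loads. Adult hepatocytes rarely divide, but they re-enter the cell cycle after loss of liver mass, and E2F transcription factors switch on many replication genes as cells enter S phase. In whole tissue, more cells in S phase and more RNA per cell cannot be told apart.

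Array medians lay between 3.80 and 4.10 (log2). Abcb4 lay between 7.25 and 8.96 on the 12 KO arrays and between 9.23 and 10.33 on the 9 control arrays, so no KO array reached the control range. The highest KO and lowest control arrays were close, and the signal that remained in KO was well above log2 4. The part of the gene that the probe set reads was not checked here. All 15 hepatocyte markers on the array were above log2 4 on at least 1 array. The difference between the 3' and 5' Gapdh control probe sets, which grows as RNA shortens, was 9.5 in control day 2 mouse 265, 2.03 in KO day 0 mouse 337 and 1.58 in control day 2 mouse 263, and at most 0.94 (control day 6 mouse 303) elsewhere. Counts are therefore also given without those 3 arrays, a choice made after seeing the data that leaves mouse 264 alone in control day 2, where it is assumed to vary like the other groups. The same difference for the actin control probe sets was 5.92, 2.48 and 3.91 on those arrays in the order named. It was 2.72 in control day 6 mouse 303, above that of KO day 0 mouse 337, and mouse 303 was kept in all of these counts.

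Many of these genes were close to the background of the array. Of the 12 that were not tested, 8 stayed at or under log2 4 on every array: the origin subunit Orc1, the kinase Cdc7, the helicase activator Cdc45, polymerase alpha (Pola1), the large primase subunit Prim2, thymidylate synthase (Tyms), the chromatin assembly factor Chaf1b and the transcription factor E2f1. The other 4 rose above 4 on a single array each. Uhrf1, which guides maintenance methylation, reached 5.48 in control day 6 mouse 303. Pole and Pole2, subunits of polymerase epsilon, reached 4.78 in control day 6 mouse 393 and 4.11 in control day 6 mouse 303. Orc2 reached 5.15 in control day 2 mouse 265, the array with the largest Gapdh difference. Of the 30 tested genes, 22 were above 4 on every array.

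The control response on day 6 after resection was the comparison with the most calls. Between day 0 and day 6 in control, 7 of 30 tested genes rose and none fell (limma, adjusted p under 0.05), or 23.3% called higher against 2.12% of all genes tested. The median difference of the 30 genes was 0.56 on the log2 scale, against 0 for all genes. The difference was above 0 for 26 of the 30, and for 18 of them the 3 day 6 arrays all lay above the 3 day 0 arrays, 60.0% against 12.2% of all genes. At an unadjusted p under 0.05 there were 17, against 16.3% of all genes. Lig1 alone passed the filter only through its day 6 control arrays, so it had to differ, and without it 6 of 29 genes rose and 17 did not overlap.

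Primase gave the largest rise. Prim1, the catalytic primase subunit, read 4.61, 5.50 and 3.64 on day 0 in control mice 263, 265 and 303, and 6.85, 7.44 and 7.18 on day 6 in control mice 303, 393 and 392. The groups did not overlap, and the difference was 2.57 ± 0.44 (SE), or 5.95-fold, with adjusted p = 0.00407. A second Prim1 probe set gave 1.79 ± 0.30. The other 3 tested genes of the polymerase group had positive differences that did not pass: 0.55 ± 0.26 for Pola2 (a polymerase alpha subunit), 0.43 ± 0.25 for Pold1 and 0.37 ± 0.34 for Pold2 (polymerase delta).

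In the clamp and its loader, 2 of 6 genes rose. Rfc4 read 5.72, 4.48 and 4.77 on day 0 in control mice 263, 265 and 303, and 6.56, 7.27 and 7.16 on day 6 in mice 303, 393 and 392, a difference of 2.01 ± 0.45 (4.02-fold, adjusted p = 0.0195). Rfc5 went from 4.57, 4.75 and 5.01 to 5.52, 6.51 and 5.81 in the same order, a difference of 1.17 ± 0.30 (adjusted p = 0.0406). In both cases every day 6 array was above every day 0 array. The Rfc5 call is the least stable of the 7, since it was lost in 10 of 21 fits that each left out 1 array, with an adjusted p of up to 0.138. The clamp itself, Pcna, was at a high level throughout. It read 9.20 to 9.72 on day 0 and 9.87 to 10.31 on day 6, without overlap, and its difference of 0.63 ± 0.22 did not pass (adjusted p = 0.156). Rfc1, Rfc2 and Rfc3 did not pass either, at 0.26 to 0.54.

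Both subunits of ribonucleotide reductase, which makes deoxynucleotides, rose. Rrm2, the subunit tied to S phase, read 5.51, 4.26 and 4.79 on day 0 in control mice 263, 265 and 303, and 6.27, 8.04 and 7.22 on day 6 in mice 303, 393 and 392. The groups did not overlap, and the difference was 2.32 ± 0.55 (adjusted p = 0.0281), with 2.54 ± 0.52 from a second probe set. Rrm1 read 4.78, 5.33 and 5.34, then 6.66, 5.99 and 6.24 in the same order, a difference of 1.15 ± 0.22 (adjusted p = 0.00872), with 1.71 ± 0.55 (adjusted p = 0.122) from a second, dimmer probe set. Its day 6 arrays were all above its day 0 arrays. The salvage kinase Dck (0.99 ± 0.28, adjusted p = 0.0674) and Dut (0.98 ± 0.28, adjusted p = 0.0637), which removes dUTP, did not pass although neither overlapped. Thymidine kinase Tk1 differed by −0.13 ± 0.67, with overlapping arrays.

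Dnajc9, a chaperone for histone H3, had the smallest adjusted p. It read 5.49, 5.47 and 5.31 on day 0 and 7.02, 6.90 and 6.76 on day 6 in the same order of mice, a difference of 1.47 ± 0.20 (2.77-fold, adjusted p = 0.000672). The SD was 0.0987 on day 0 and 0.130 on day 6 (n = 3 each). Lig1, which seals Okazaki fragments, was at or under log2 4 on every day 0 array (3.18 to 3.45) and read 4.65, 4.22 and 4.28 on day 6. Its difference of 1.08 ± 0.21 therefore starts from readings under the low-value limit, where its size is uncertain, and its call follows in part from the filter. Slbp, which binds histone messages, and the methyltransferase Dnmt1 did not pass, at 0.58 ± 0.20 and 0.45 ± 0.23. The other Dnmt1 probe set, with a lower mean over all arrays (4.78 against 5.86), gave 1.32 ± 0.34 (adjusted p = 0.0492 among 11177 probe sets).

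Origin genes gave no call among 7 tested, and they did not move as 1 block. Dbf4, the activator of the Cdc7 kinase, read 2.80, 2.70 and 2.76 on day 0 and 3.43, 6.90 and 4.66 on day 6 in mice 303, 393 and 392. Its arrays were thus far apart on day 6, and the difference of 2.24 ± 0.65 did not pass (adjusted p = 0.0697). Every day 0 array of Dbf4 was under log2 4, so the size of this difference is uncertain, as for Lig1. Gins1, of the GINS part of the helicase, differed by 1.25 ± 0.39 and Orc6 by 0.74 ± 0.30, both without overlap and neither called. Orc3, Orc4 and Orc5, the core origin subunits that were well detected, differed by −0.09, −0.07 and −0.38.

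The number of calls depended on single arrays. It was 3 without control day 0 mouse 265, 4 without control day 0 mouse 303 or control day 6 mouse 392, 11 without control day 2 mouse 265, and 12 without the 3 arrays of high Gapdh difference. Dnajc9, Prim1 and Rrm1 were called in all 21 fits that left out 1 array. A fit of the control day 0 and day 6 arrays alone called 1.

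**Figure D1:**
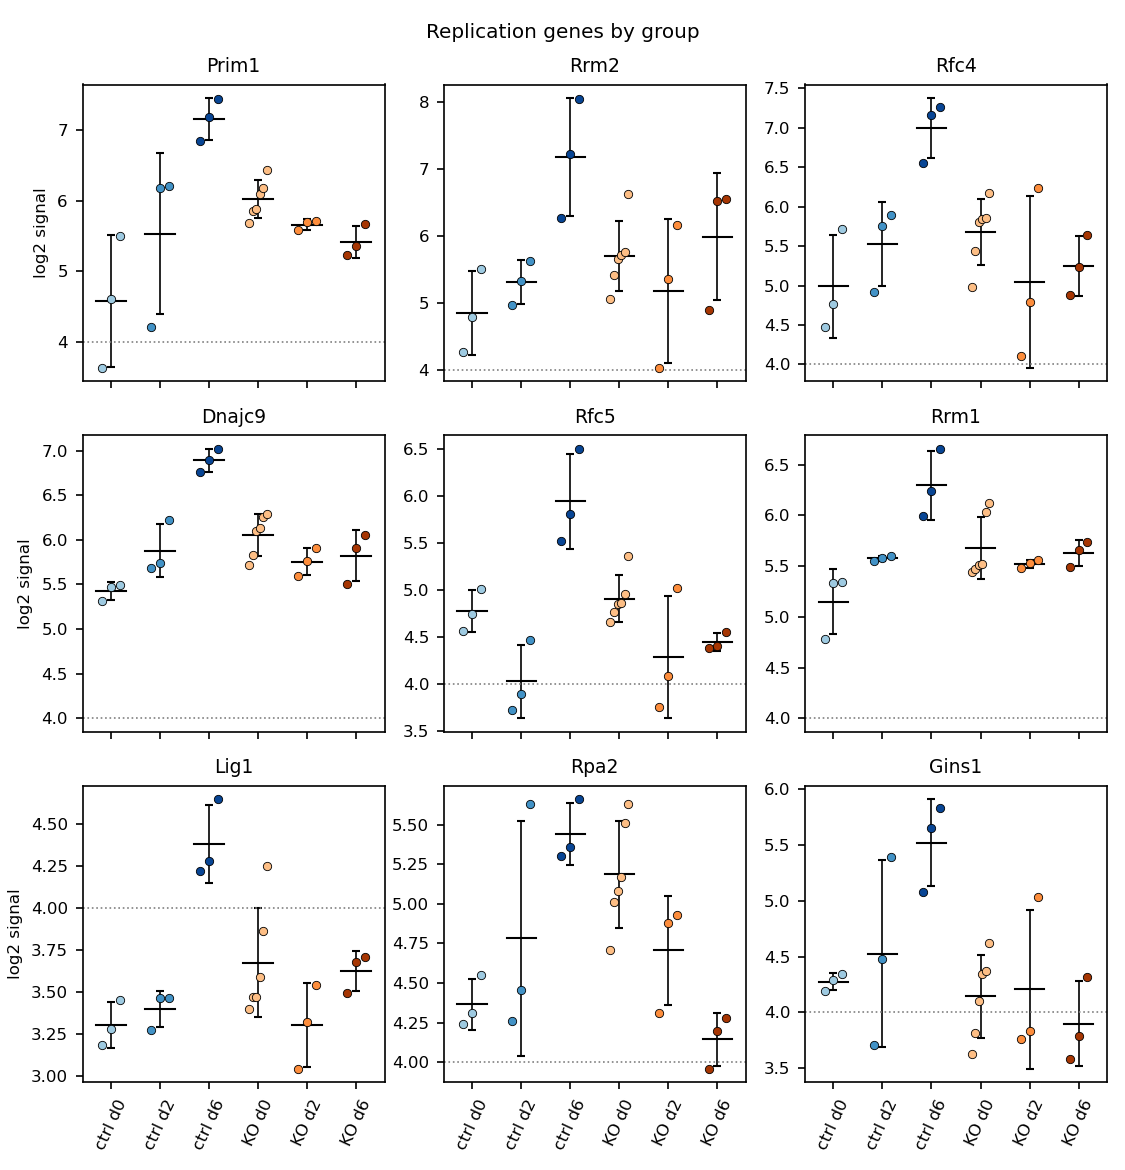
Deposited log2 signal of 9 genes on each of 21 arrays (vertical axis, one scale per gene) in 6 groups: points are arrays, bars the group mean with its SD, and the dotted line the low-value limit of 4. The 3 control day 6 arrays (ctrl d6) are the highest control arrays for Prim1, Rrm2 and Dnajc9, with Prim1 between 6.85 and 7.44, while KO day 6 Prim1 lies between 5.23 and 5.67.

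The bases just upstream of the start sites of these genes were read from the RefSeq table of GRCm38.p6 (the C57BL/6J reference, not the mice measured). A window of 250 bases before to 50 after the start was found for 38 of the 43 genes, and not for Rfc2, Prim2, Gins1, Pole and Tipin. Windows were searched on both strands for 4 spellings of the E2F core, which are TTCCCGC, then TTGGCGC, then TTCGCGC, and then TTGCCGC. At least 1 was present in 22 of 38 genes (57.9%), against 10.9% of 27025 genes with a window of the same length and 13.7% of 17492 protein-coding genes. Of the 7 genes that rose on day 6 in control, 6 held it, Rfc5 being the exception, and of 20 tested genes with a window that were not called, 9 did (45.0%). The CCAAT box, bound by NF-Y, was in 52.6% of the genes against 41.1% of all, and the CHR word TTTGAA in 18.4% against 20.2%. The letters describe the reference sequence and show neither binding nor use. The 250 bases before the start are given 5′ to 3′ for those called genes that hold an E2F core there, Prim1 (chr10:128014965-128015214), Rrm1 (chr7:102441445-102441694) and Rrm2 (chr12:24708004-24708253), all on the plus strand. Rpa2 (chr4:132768110-132768359, plus strand), named after its values were seen, is added since its change differed between genotypes. Capitals mark the E2F core.
Prim1: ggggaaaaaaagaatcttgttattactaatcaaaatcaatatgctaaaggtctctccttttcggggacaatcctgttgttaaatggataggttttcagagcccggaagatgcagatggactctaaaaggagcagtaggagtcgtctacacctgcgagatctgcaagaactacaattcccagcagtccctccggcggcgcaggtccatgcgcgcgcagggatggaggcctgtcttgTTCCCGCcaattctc
Rrm1: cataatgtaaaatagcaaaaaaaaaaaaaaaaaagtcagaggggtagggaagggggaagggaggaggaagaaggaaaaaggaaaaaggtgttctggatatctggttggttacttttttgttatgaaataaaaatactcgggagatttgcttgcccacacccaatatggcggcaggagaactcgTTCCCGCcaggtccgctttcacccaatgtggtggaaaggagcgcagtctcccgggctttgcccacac
Rrm2: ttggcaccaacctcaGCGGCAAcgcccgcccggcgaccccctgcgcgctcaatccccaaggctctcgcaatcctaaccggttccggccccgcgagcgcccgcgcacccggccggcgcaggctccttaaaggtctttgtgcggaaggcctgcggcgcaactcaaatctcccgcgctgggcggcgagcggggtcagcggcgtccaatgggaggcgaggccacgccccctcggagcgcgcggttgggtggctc
Rpa2: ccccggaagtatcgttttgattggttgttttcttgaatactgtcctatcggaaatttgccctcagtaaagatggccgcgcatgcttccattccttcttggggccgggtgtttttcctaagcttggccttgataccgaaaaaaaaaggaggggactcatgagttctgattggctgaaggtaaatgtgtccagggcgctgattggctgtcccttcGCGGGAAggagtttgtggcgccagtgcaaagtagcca
The core starts 15 bases before the start site in Prim1, where it shares 1 base with a CCAAT box, 67 in Rrm1, 235 in Rrm2 and 37 in Rpa2. In Rfc4, Dnajc9 and Lig1 the match lies after the start.

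In KO, day 6 did not show the same movement. No tested gene was called between day 0 and day 6 (limma), against 0.137% of all genes, and 3 had an unadjusted p under 0.05, against 5.44% of all genes. The median difference was −0.13, against −0.05 for all genes, and 25 of 30 differences were below 0. KO had 6 day 0 arrays, so this comparison had more arrays than the control one. Prim1 ranged from 5.69 to 6.43 (median 5.99) on day 0 and read 5.67, 5.36 and 5.23 on day 6 in mice 312, 332 and 337, just below its day 0 range. Dnajc9 ranged from 5.72 to 6.29 (median 6.12) on day 0 and read 5.91, 6.05 and 5.50 on day 6, which overlaps. Differences were −0.60 ± 0.38 for Prim1, −0.23 ± 0.17 for Dnajc9, −0.05 ± 0.19 for Rrm1 and 0.28 ± 0.48 for Rrm2, none called.

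Rpa2, Orc5 and Dck had the 3 unadjusted p-values under 0.05. Rpa2, the middle subunit of the single-strand binding protein RPA, ranged from 4.71 to 5.63 (median 5.12) on day 0 and read 4.28, 3.96 and 4.20 on day 6, without overlap, at −1.04 ± 0.26 (adjusted p = 0.158). The other Rpa2 probe set did overlap, ranging from 3.58 to 5.03 on day 0 and reading 3.89, 4.08 and 3.84 on day 6. Orc5 ranged from 5.91 to 6.72 on day 0 and read 5.59, 5.58 and 5.06 on day 6, at −0.89 ± 0.20 (adjusted p = 0.0898). Dck moved the other way, from 6.73 to 7.22 on day 0 to 8.05, 8.36 and 7.28 on day 6, at 0.95 ± 0.25 (adjusted p = 0.199). The Dck difference in control was of like size, 0.99 ± 0.28, and the difference between the genotypes was −0.04 ± 0.38.

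The difference between the genotypes in the day 6 change was tested as an interaction. It was called for 3 of 30 genes (10.0%), all lower in KO, against 0.150% of all genes called lower (0.164% in either direction). The change in KO minus that in control was −3.18 ± 0.58 for Prim1 (adjusted p = 0.0251), −2.11 ± 0.39 for Rpa2 (adjusted p = 0.0262) and −1.70 ± 0.26 for Dnajc9 (adjusted p = 0.00598). All 3 genes already read higher in KO on day 0, by 1.44, 0.82 and 0.63 in that order, and this gap is part of the interaction. In control, the Rpa2 mean went from 4.37 on day 0 to 5.44 on day 6, which was not called (limma, adjusted p = 0.0591). The median over the 30 genes was −0.75, against −0.05 for all genes, and 16 had an unadjusted p under 0.05, against 5.36% of all genes. Differences beyond −2 that did not pass were those of Rfc4 (−2.44 ± 0.60, adjusted p = 0.138), Dbf4 (−2.34 ± 0.86, adjusted p = 0.62) and Rrm2 (−2.04 ± 0.73, adjusted p = 0.612). Dbf4 was under log2 4 on every control day 0 array (up to 2.80) and every KO day 6 array (up to 3.75), so its size is uncertain. Other probe sets gave −2.23 ± 0.40 for Prim1 (adjusted p = 0.0266), −2.32 ± 0.35 for Rfc4 (adjusted p = 0.00815) and −1.07 ± 0.44 for Rpa2 (adjusted p = 0.797), each fitted among 11177 probe sets. Dnajc9 was called in all 21 fits that left out 1 array. Dnajc9 alone was left without any 1 of KO day 6 mice 312, 332 and 337, control day 0 mice 263 and 303, and control day 6 mice 392 and 393, where Prim1 reached an adjusted p of 0.0885 and Rpa2 of 0.103.

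**Figure D2:**
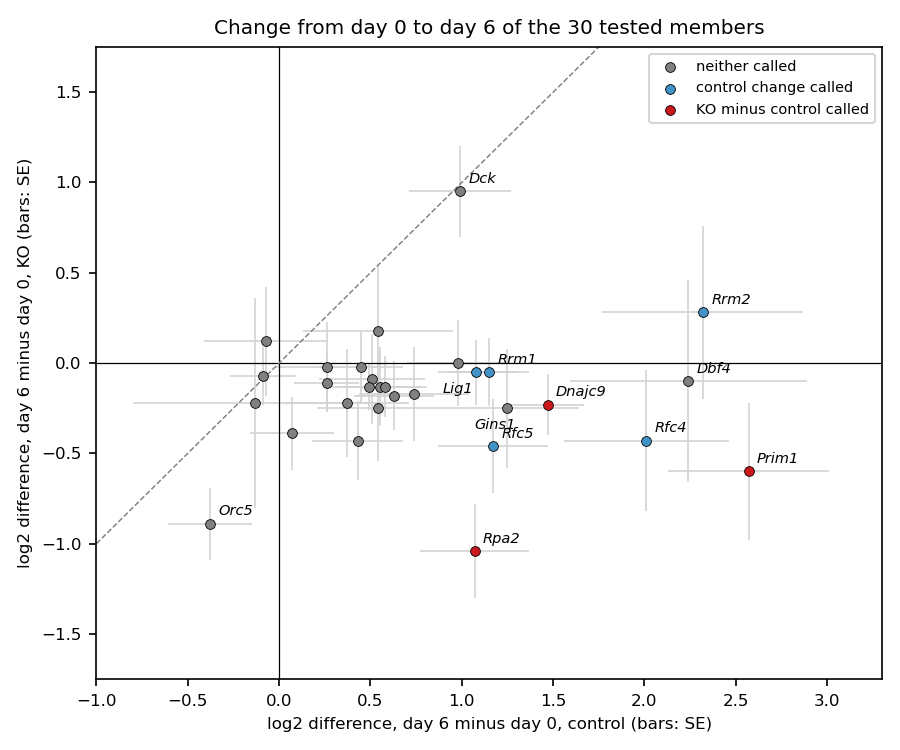
Difference in log2 signal between day 6 and day 0 of the 30 tested genes, in control (horizontal) and in KO (vertical); bars are SE from limma and the dashed line marks equal change. Prim1, at 2.57 in control and −0.60 in KO, lies farthest right, and Dck (0.99 and 0.95) lies on the line.

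Set against control on the same day, KO livers on day 6 had lower levels of 5 of 30 genes (16.7%) and higher levels of none, against 0.492% of all genes lower. The median difference was −0.75 against −0.03, 28 of 30 differences were below 0, and for 22 all KO arrays lay below all control arrays, 73.3% against 10.8% of all genes. At an unadjusted p under 0.05 there were 19, against 12.9% of all genes. Without Lig1, 5 of 29 were called and 21 did not overlap. This comparison, the control change and the interaction share the 3 control day 6 arrays, so they are not separate evidence.

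Fen1, the flap endonuclease that trims Okazaki fragments, read 6.99, 7.06 and 7.13 in KO mice 312, 332 and 337 and 8.46, 8.48 and 8.05 in control mice 303, 393 and 392, a difference of −1.27 ± 0.18 (adjusted p = 0.00061). Dnajc9 read 5.91, 6.05 and 5.50 in KO against 7.02, 6.90 and 6.76, at −1.07 ± 0.20 (adjusted p = 0.00502). Both were called in all 21 fits that left out 1 array. Rfc5 read 4.56, 4.41 and 4.38 against 5.52, 6.51 and 5.81, at −1.50 ± 0.30 (2.82-fold lower, adjusted p = 0.0108). Rpa2 read 4.28, 3.96 and 4.20 against 5.66, 5.36 and 5.30, at −1.29 ± 0.30 (adjusted p = 0.0288). Gins1 read 3.79, 4.32 and 3.58 against 5.65, 5.83 and 5.08, at −1.62 ± 0.39 (adjusted p = 0.0354). In these 3 genes too the groups did not overlap, but each call was lost without some single arrays of the comparison, with an adjusted p of up to 0.0759 for Rfc5, 0.101 for Rpa2 and 0.182 for Gins1.

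Prim1 (−1.74 ± 0.44, adjusted p = 0.0532) and Rfc4 (−1.74 ± 0.45, adjusted p = 0.0568) lay just outside the threshold. Prim1 passed with the mouse as a block (−1.77, adjusted p = 0.0417), and other probe sets of Prim1 (−1.42 ± 0.30, adjusted p = 0.0216) and Rfc4 (−2.0 ± 0.26, adjusted p = 0.000482) passed. The other probe set of Rpa2, one of the 5 called genes, did not (−0.70 ± 0.33, adjusted p = 0.388), and with averaged probe sets Rpa2 was not called (−1.0, adjusted p = 0.0615). Tk1 had the largest difference, −2.18 ± 0.67 (adjusted p = 0.128), with KO between 4.76 and 5.01 and control between 6.51 and 7.63. Rrm2 differed by −1.19 ± 0.55 (adjusted p = 0.374), and its KO arrays (6.55, 4.89 and 6.52) reached into the control range. Orc4 and Dck were the 2 genes with a positive difference, 0.42 ± 0.34 and 0.13 ± 0.28. The count of 5 became 2 without KO day 6 mouse 337 or control day 6 mouse 393, 3 without KO day 6 mouse 312 or control day 6 mouse 303, and 6 without the 3 arrays of high Gapdh difference. Centring each array on its median gave 9 and shifted the median of all genes to −0.21. A fit of the day 6 arrays alone called 2, neither of them among the 5.

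**Figure D3:**
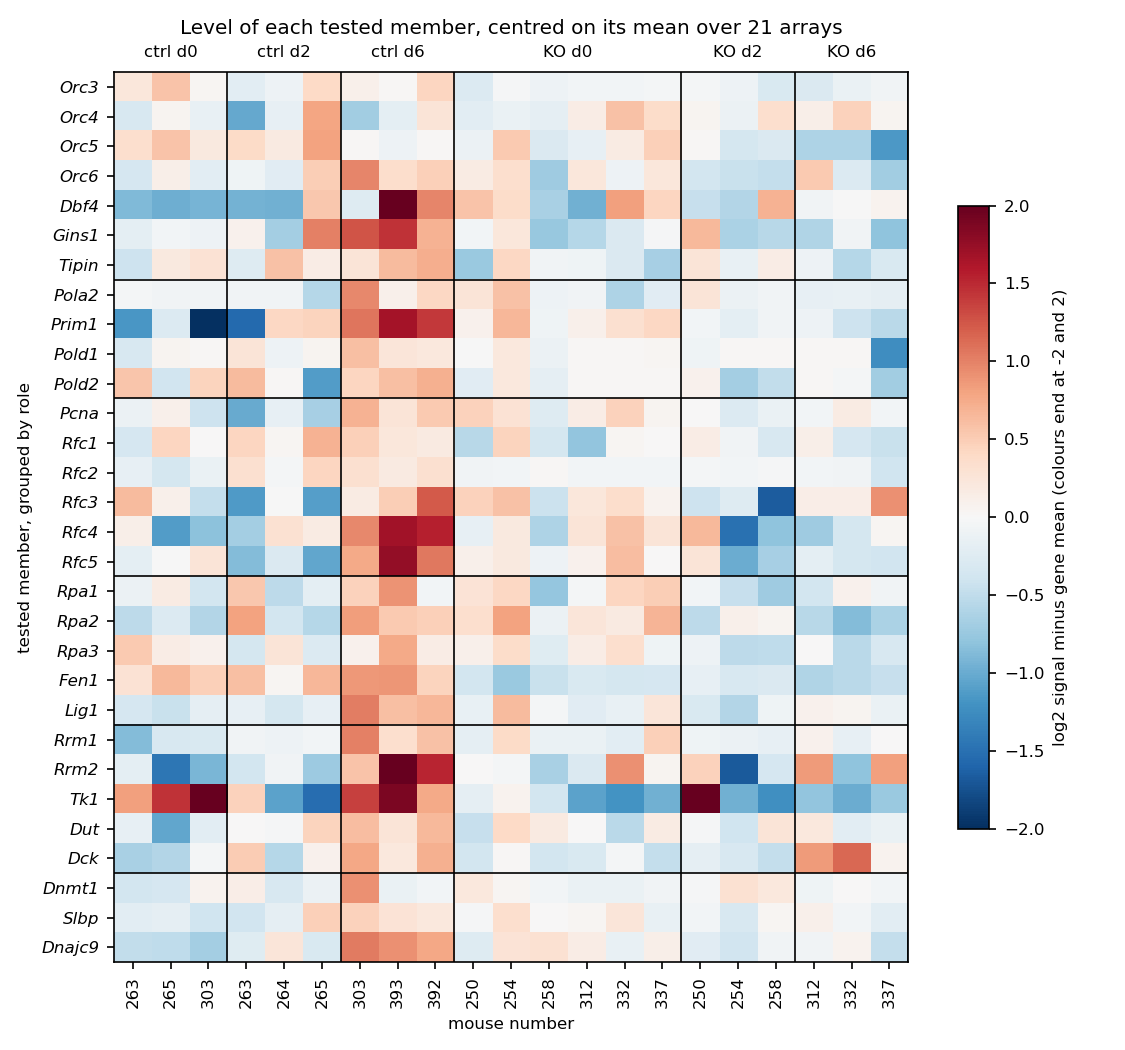
Log2 signal of each of the 30 tested genes (rows, grouped by role) on each of 21 arrays (columns, by group and mouse number), minus the gene's mean over all arrays; red is above and blue below that mean, and colours end at −2 and 2. The 3 control day 6 columns are red in most rows, and the mean of the 30 genes is 0.601 to 0.744 there and −0.404 to 0.267 on the other 18 arrays.

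On day 0, before the response to resection, calls between KO and control went both ways. Of 30 genes, 2 were higher and 2 lower in KO (13.3%), against 9.66% of all genes called, and the median difference was 0.17 against 0.02. At an unadjusted p under 0.05 there were 7, against 22.3% of all genes, which is near the share of the 30. Differences above 0 numbered 21 and those below 0 numbered 9. Prim1 ranged from 5.69 to 6.43 (median 5.99) on the 6 KO arrays and read 4.61, 5.50 and 3.64 in control, at 1.44 ± 0.38 (adjusted p = 0.0223), and its other probe set gave 0.81 ± 0.26 (adjusted p = 0.0659). Without control mouse 303, where Prim1 was lowest, the difference was 0.97 (adjusted p = 0.191), and without control mouse 263 the call was lost as well (adjusted p = 0.066). Dnajc9 ranged from 5.72 to 6.29 in KO and from 5.31 to 5.49 in control, at 0.63 ± 0.17 (adjusted p = 0.0235). It was lost without any 1 of the control arrays (adjusted p up to 0.119), and when each array was centred on its median (0.49, adjusted p = 0.0828), which moved the median of all genes from 0.02 to −0.12. Rpa2 differed by 0.82 ± 0.26 (adjusted p = 0.0527; with the mouse as a block 0.84, adjusted p = 0.0477), and no KO array overlapped the control arrays. The other Rpa2 probe set did overlap, at 3.58 to 5.03 in KO and 3.91 to 4.19 in control. The number called was 1 without control mouse 303, 2 without control mouse 263 or 265, and 5 without the 3 arrays of high Gapdh difference.

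Fen1 and Tk1 were the 2 genes lower in KO on day 0. Fen1 ranged from 6.85 to 7.30 (median 7.24) in KO and read 7.89, 8.25 and 8.08 in control mice 263, 265 and 303, at −0.90 ± 0.16 (adjusted p = 0.000973). This call held in all 21 fits that left out 1 array, but it rests on 1 probe set. The other Fen1 probe set, with a mean of 4.28 over all arrays against 7.60, ranged from 3.95 to 4.90 in KO and from 3.75 to 3.98 in control, a difference of 0.48 ± 0.25 (adjusted p = 0.304). The mean of both sets gave −0.21 (adjusted p = 0.546). The sets also differed in control between day 0 and day 6, at 0.26 ± 0.18 and 1.27 ± 0.29 (adjusted p = 0.0285), while on day 6 both were lower in KO, at −1.27 ± 0.18 and −1.02 ± 0.29 (adjusted p = 0.107). Tmem258, which overlaps Fen1 in the RefSeq annotation, differed by 0.23 ± 0.17 on day 0.

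Tk1, the thymidine salvage kinase of dividing cells, went against the other nucleotide genes. It read 6.57, 7.19 and 7.89 in control mice 263, 265 and 303 on day 0 and ranged from 4.55 to 5.82 (median 5.08) in the 6 KO arrays, at −2.08 ± 0.58 (4.24-fold lower, adjusted p = 0.0281). The groups did not overlap. The call was lost without KO day 0 mice 312, 332 or 337 or control mice 265 or 303, with an adjusted p of up to 0.162. Afmid, which overlaps Tk1 in the annotation, differed in the same direction, at −1.40 ± 0.51 (adjusted p = 0.0928), and its part in the Tk1 signal was not tested. Of the other tested nucleotide genes, Rrm1 (0.53 ± 0.19, adjusted p = 0.0856), Rrm2 (0.85 ± 0.48), Dut (0.43 ± 0.24) and Dck (0.17 ± 0.25) had positive differences, none called. With probe sets averaged per gene, Rrm1 was called (0.91, adjusted p = 0.0153).

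**Figure D4:**
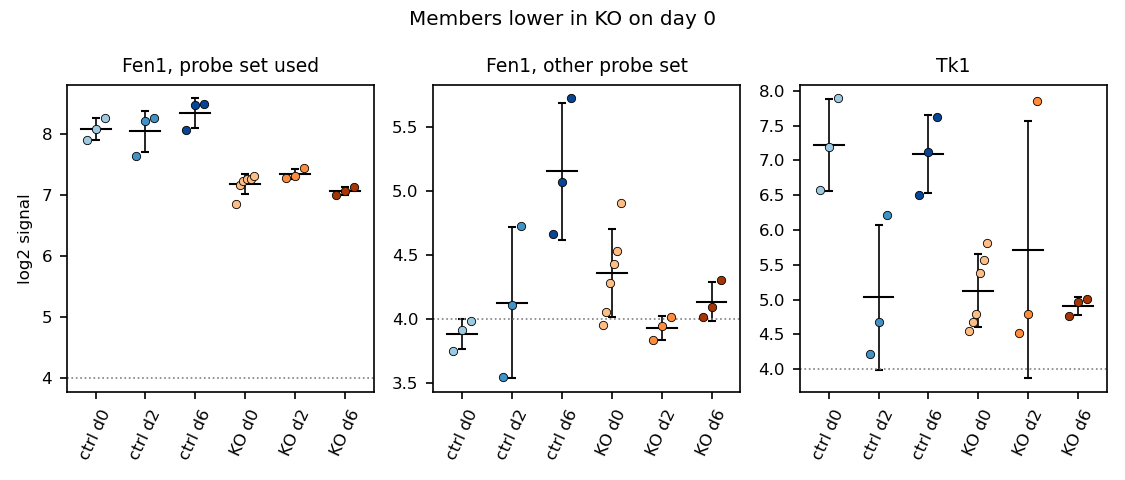
Log2 signal of both Fen1 probe sets and of Tk1 on each of 21 arrays in 6 groups; points are arrays, bars the group mean with its SD, and the dotted line the limit of 4. The Fen1 probe set used is lower on all 12 KO arrays (6.85 to 7.43) than on the 9 control arrays (7.64 to 8.48), and the other set is not. Tk1 lies between 6.51 and 7.89 in control on days 0 and 6 and is spread from 4.22 to 6.21 on day 2.

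Day 2 gave few calls among these genes. In control, 1 of 30 genes was called between day 0 and day 2, against 9.51% of all genes, and 20 of 30 differences were above 0 (median 0.14, all genes 0.08). That gene was Tk1, which read 6.21, 4.68 and 4.22 on day 2 in mice 263, 264 and 265, against 6.57, 7.19 and 7.89 on day 0, at −2.18 ± 0.67 (adjusted p = 0.048). Its groups did not overlap. The call was lost in 17 of 21 fits that left out 1 array and without the 3 arrays of high Gapdh difference (adjusted p = 0.222), of which mice 263 and 265 are 2 of the 3 control day 2 arrays. Without control day 2 mouse 264 the count was 3, and without control day 2 mouse 263 it was 2. Rfc2 did not pass (0.45 ± 0.15, adjusted p = 0.0564). It did under 4 of 8 other settings, the mouse as a block among them (0.47, adjusted p = 0.0369), and in 1 of 21 fits that left out 1 array. Prim1 read 4.22, 6.18 and 6.21 and differed by 0.95 ± 0.44, with overlap. Other probe sets passed without overlap among 11177 probe sets, at 1.11 ± 0.30 for Prim1 (adjusted p = 0.0296; 5.72, 5.79 and 5.99 on day 2 against 5.21, 5.33 and 3.64) and 1.26 ± 0.34 for Dnmt1 (adjusted p = 0.028).

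In KO, no gene was called between day 0 and day 2, neither among the 30 nor among all 7320 (0%, limma). At an unadjusted p under 0.05 there were 3 of 30, against 439 of all genes (6%). Yet 22 of 30 differences were below 0, with a median of −0.20 against −0.02 for all genes. The largest difference was that of Rfc3, −0.99 ± 0.36 (adjusted p = 0.618). The change in KO minus that in control was likewise called for none of 7320 genes (0%). At an unadjusted p under 0.05 there were 5 of 30, against 1070 of all genes (14.6%). Of the 30 differences 21 were below 0 (median −0.31, all genes −0.10). The largest went the other way, that of Tk1 at 2.77 (limma, adjusted p = 0.197). Tk1 read 7.85 in KO day 2 mouse 250, against 4.79 and 4.52 in KO day 2 mice 254 and 258. Over all genes both counts of 0 rested on single arrays: the first was 32 without KO day 0 mouse 258, and the second was 227 without control day 2 mouse 264 and 73 without control day 2 mouse 263. Between KO and control on day 2, 1 gene was called, against 5.71% of all. It was Fen1, which read 7.43, 7.28 and 7.31 in KO mice 250, 254 and 258 and 8.20, 7.64 and 8.26 in control mice 263, 264 and 265, at −0.69 ± 0.18 (adjusted p = 0.0345). The call was lost without any 1 of the 3 KO day 2 arrays, control day 2 mouse 263 or control day 2 mouse 265, and at −0.30 (adjusted p = 0.775) without the 3 arrays of high Gapdh difference. Without control day 2 mouse 264 the count was 3.

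Mice measured on both days allow the change to be read within 1 animal. In control mouse 303, 24 of 30 genes were higher on day 6 than on day 0, 5 lower and 1 equal, with a median of 0.81, and 47.7% of all genes were higher. In that mouse 11 of the 30 genes were higher by over 1, against 8.73% of all genes, led by Prim1 at 3.21, Rfc4 at 1.79 and Dnajc9 at 1.71. It was the only control mouse with both days. KO mice 312, 332 and 337 had 11, 9 and 7 of the 30 genes higher on day 6 and 16, 21 and 23 lower, with medians of −0.02, −0.18 and −0.33, and 51.2%, 45.1% and 36.3% of all genes were higher. Control mice 263 and 265 had 17 and 18 of the 30 genes higher on day 2, with medians of 0.11 and 0.23, and 51.1% and 59.7% of all genes were higher. On day 2 the KO mice were unlike each other. Mouse 254 had 27 of 30 genes lower and a median of −0.74, against −0.03 for all genes, whereas mice 250 and 258 had 12 lower each, and medians of 0.06 and 0.03. Mouse 254 had the highest mean of the 30 genes among KO arrays on day 0 (0.267) and the lowest on day 2 (−0.404).

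Other genes of DNA replication and its control, from lists drawn up beside this one, moved in part alongside. Of 8 tested genes of the MCM helicase and origin licensing, 5 rose on day 6 in control, against 2.12% of all genes. In the same list 3 were lower in KO than in control on day 6, against 0.492% of all genes. Mcm5 and Mcm6, subunits of the helicase ring, rose by 3.05 ± 0.36 and 3.93 ± 0.58. Of 14 tested other fork genes, 1 rose, the topoisomerase Top2a (3.53 ± 0.41), which is also on the mitosis list, and it was lower in KO on day 6 (−2.61 ± 0.41). Of 11 other replication chromatin genes, the chromatin protein Hmgb2 (1.67 ± 0.31) and the methyltransferase Ezh2 (1.27 ± 0.26) rose in control, and none differed on day 6 between genotypes by the test. Of 25 tested genes of the general nucleotide pathway 1 rose on day 6 in control, the CTP synthase Ctps2 (1.15 ± 0.22), the median was −0.12, and none was called between genotypes on day 6. On day 2 in control 4 of the 25 were higher and 1 lower, against 9.51% of all genes called in either direction. Of 18 genes that control E2F and entry into S phase, the pocket protein Rbl1 (2.31 ± 0.38) and the CDK inhibitor Cdkn2c (2.24 ± 0.43) rose in control, and the repressor E2f8 was lower in KO on day 6 (−1.72 ± 0.41, adjusted p = 0.0334). On day 0, where 9.66% of all genes were called in either direction, 4 of these 18 were higher in KO. They were the CDK inhibitors Cdkn1a (3.8 ± 0.86) and Cdkn2c (2.83 ± 0.37), the cyclin Ccnd1 (1.85 ± 0.49) and Rbl1 (1.1 ± 0.33). Also higher in KO were 2 of the 8 MCM and licensing genes (Mcm6, 2.47 ± 0.50). Of the 25 nucleotide genes 1 was higher, Ctps2 (1.38 ± 0.19), and 1 lower.

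The mean of the 30 genes, centred per gene, was 0.604, 0.601 and 0.744 in control day 6 mice 303, 392 and 393. The means of the lists of other fork genes (0.300, 0.299 and 0.464) and of other replication chromatin genes (0.249, 0.227 and 0.413) were also close together in these mice. The mean of 8 MCM and licensing genes was 2.386, 0.944 and 0.815 in the same order, and that of 12 mitosis genes 0.144, 1.849 and 4.087. Mouse 303 thus had the highest MCM and the lowest mitosis level, and mouse 393 the reverse. Among single genes, Uhrf1 and Rrm1 were highest in mouse 303 (5.48 and 6.66) and Dbf4 and Rrm2 in mouse 393 (6.90 and 8.04). The second, dimmer Rrm1 probe set gave the reverse order, with 3.91 in mouse 303, 4.65 in mouse 392 and 5.53 in mouse 393. The Gapdh difference was 0.94 in mouse 303, 0.08 in mouse 393 and −0.03 in mouse 392. The actin difference was 2.72, 1.72 and 1.27 in the same order. The part of RNA quality in these differences was not tested.

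**Figure D5:**
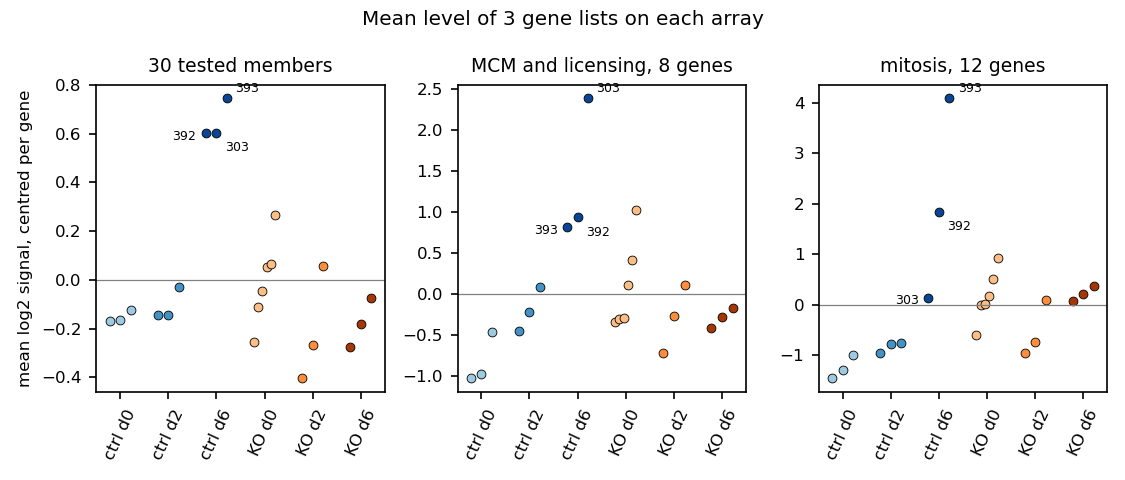
Mean log2 signal, centred per gene over 21 arrays, of the 30 tested genes, 8 MCM and licensing genes and 12 mitosis genes on each array, by group; each panel has its own scale and numbers mark the control day 6 mice. All 3 of these mice are above every other array in the first panel (0.601 to 0.744), while they run from 0.144 to 4.087 for mitosis genes.

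Markers of other cells that can divide were read beside these values. Among T and NK cell markers, 9 of 13 on the array were at or under log2 4 on every array, Cd3d, Cd3e and Cd3g among them, and the summed level of the 13 ran from 32.3 to 34.6 in control day 6, 31.8 to 32.7 in control day 0 and 31.0 to 38.0 in KO day 6. Among B cell markers 6 of 9 were, including Cd79a and Cd79b. Macrophage markers, of which 12 of 13 were above 4 somewhere, differed both by day and by genotype. On day 6 in control 2 of 11 tested rose, against 2.12% of all genes. The summed level of the 13 was 76.7 to 107.6 there, 72.5 to 77.4 in control day 0, 81.1 to 87.9 in KO day 0 and 83.2 to 94.8 in KO day 6. Control day 6 mouse 393, at 76.7, lay within the control day 0 range. On day 0, 3 of 11 macrophage markers were higher in KO and 1 was lower, against 9.66% of all genes called in either direction. On day 6, 2 of 11 were lower in KO, against 0.492% of all genes, and none was higher. These were Marco (−5.39 ± 1.32) and Cd163 (−4.1 ± 0.33), while 7 of 11 differences were above 0. The mean of the 11 macrophage markers, centred per gene, was 1.985 in control day 6 mouse 303, 0.949 in mouse 392 and −0.708 in mouse 393. Neutrophil markers, of which 5 of 9 were at or under 4 everywhere (Mpo and Elane among them), had a summed level of 30.1 to 36.7 in control day 6 against 24.9 to 28.5 in control day 0, and of 32.4 to 36.7 in KO day 6 against 25.5 to 31.8 in KO day 0. The 3 tested had a median difference of 2.99 on day 6 in control and 2.51 in KO, none called. Stellate and matrix markers moved with genotype, with 8 of 10 tested higher in KO on day 0, against 9.66% of all genes called in either direction. Their summed level on that day was 78.1 to 96.3 in KO against 59.9 to 60.6 in control. On day 6 in control their summed level was 64.4 to 69.4, above that of day 0, and 9 of 10 differences were above 0 (median 0.41), none called. The summed level of 7 bile duct markers was 21.3 to 21.6 in control day 6, 20.6 to 21.4 in control day 0 and 21.4 to 29.0 in KO day 6. That of 9 endothelial markers was 42.7 to 54.8, 48.2 to 50.3 and 49.5 to 53.4 in the same order. The part of macrophages, neutrophils, bile duct cells, endothelial cells and stellate cells in the levels of the replication genes was not tested.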

How the data were processed

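Total RNA was labelled by a 3' IVT protocol, per the labels' protocols, and signals were made with GCRMA (version not given), per the submitters' processing notes. The range of the deposited values is that of a log2 scale, and they were kept as deposited. What else the authors did is not given here. Of 22690 probe sets, 20380 had 1 gene symbol in the platform annotation, 691 had several, 1555 none here and 64 were controls; 20351 matched RefSeq (GRCm38.p6) by Entrez ID, which changed 0 symbols.

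The 9 comparisons were contrasts of group means in a single fit over the 6 groups with limma 3.58.1 in R 4.3.3 (functions lmFit and eBayes, 15 residual degrees of freedom), with two-sided Benjamini-Hochberg adjusted p-values over 7320 genes and a threshold of 0.05. Genes and lists were chosen with earlier results of these data known. Any member could be named; of other lists, up to 4 genes with the largest called change, or that with the smallest p where none was called; overlapping genes and Rpa2's promoter were added after values were seen. Cell markers were summed over the markers on the array.

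The mouse number in the labels pairs samples of 1 animal. Over 9 such pairs the correlation of deviations from group means ran from −0.0568 to 0.303 (median 0.119), and the block was an alternative (duplicateCorrelation, 0.108). On simulated data, in which 200 of 7320 genes were changed, the model was tested: for the day 6 change in control it recovered 38% of genes changed by 1 and 84% of those changed by 2 (log2), and for the day 6 interaction 17% and 75%. Arrays give no molecule counts, so the number of arrays limits precision. Figures used matplotlib 3.10.9 in Python 3.11.15.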

Additional observations from a re-analysis of the deposited data

Results flagged for a closer look

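Among the tested replication genes, 3 had 1 of the 6 KO day 0 arrays far from the others for the narrow range of the group, a pattern that chance gives in about 1 of 20 groups tested: the origin subunit Orc3 in mouse 250 (6.29, the next array at 6.46), the loader subunit Rfc2 in mouse 258 (6.60, next 6.53) and Fen1 in mouse 254 (6.85, next 7.16). The day 6 change differed between genotypes by the interaction test for Prim1 (−3.18), Rpa2 (−2.11) and Dnajc9 (−1.70).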

How the results depend on the processing

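The number of tested replication genes called moved with the following settings. KO against control on day 2 (1 called) gave 0 with probe sets averaged per gene, with a fit of only the groups compared and without the 3 arrays of Gapdh difference above 1. KO against control on day 6 (5) gave 2 with a low-value limit of 6, 8 with quantile normalization, 9 with each array centred on its median and 2 with only the groups compared. Day 2 against day 0 in control (1) gave 2 with the limit of 6, 2 with averaged probe sets, 2 with the replicate block, and 0 with quantile normalization, with centring, with only the groups compared and without the 3 arrays. Day 6 against day 0 in control (7) gave 1 with only the groups compared and 12 without the 3 arrays. The day 6 response, KO minus control (3), gave 1 with no filter. Leaving out 1 array at a time gave 1 to 5 for KO against control on day 0, 0 to 3 on day 2 and 2 to 7 on day 6. It gave 0 to 3 (day 2) and 3 to 11 (day 6) in control, 0 in each fit (day 2) and 0 to 1 (day 6) in KO, and 0 to 1 (day 2) and 1 to 3 (day 6) for the response. Differences that changed sign were all small and uncalled: Dck between genotypes on day 6 (−0.05 with centring, −0.10 to 0.44 leaving out 1 array), Dck in the day 6 response (0.15 with averaged probe sets, −0.27 to 0.27), Rrm1 on day 6 in KO (0.04 with averaged probe sets and without the 3 arrays, −0.11 to 0.04), and on day 6 in control Tk1 (−0.45 to 0.21), Orc3 (−0.22 to 0.06) and Orc4 (−0.31 to 0.17). Apart from genes that the limit of 6 leaves untested, the cause of these changes was not tested. A fit of only the groups compared has fewer residual degrees of freedom. It also takes its estimate of spread from those groups alone, and the part of each was not tested. With the limit of 6, Gins1 and Rpa2 are not tested, since their highest arrays read 5.83 and 5.66. Rfc5 is not tested either, since it was above 6 on 1 array only (6.51).

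With the mouse as a replicate block, which pairs samples of 1 animal, 5, 6 and 8 genes were called for KO against control on days 0 and 6 and for day 6 in control, and the counts of the other comparisons, control day 2 apart, were as before. Over all genes, fits of only the groups compared called 18 of 418 (KO against control, day 2), 38 of 127 (day 6), 27 of 696 (control, day 2) and 19 of 209 (control, day 6). Without the 3 arrays 32, 72 and 6 were called for KO against control on day 2, control on day 2 and KO on day 6 (10). The last gave 6 with no filter, and the day 6 response (12) gave 5 with the limit of 6. The day 2 response (0) gave 1 to 10 under 6 settings. Leaving out 1 array gave 354 to 904, 72 to 1158 and 61 to 159 genes for KO against control on days 0, 2 and 6, 173 to 1275 and 50 to 295 for days 2 and 6 in control, 2 to 45 for day 6 in KO and 4 to 36 for the day 6 response. Low signal limits the genes near log2 4, where the size of a difference is uncertain, and 3 arrays in a group limit all others.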
